A study of Homo sapiens with 30 samples.

Results

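Withdrawal of interferon-γ (IFN-γ) from U251 cells was examined by setting the washout libraries against the libraries of day 14, the point at which the cytokine was removed. The libraries were chosen by their labels for cell line, treatment and day. They are 3 labelled D28WO and 3 labelled D14, so 6 of the 30 libraries of the series, and the U251 table holds 15 libraries in 5 groups of 3. U251 is an established human glioblastoma line, a bulk culture with wild type as its labelled genotype. Its identity is a limit, since no short tandem repeat profile was made of these cells and U251 stocks are known to have been mixed up. RNA abundance was measured by bulk RNA sequencing and deposited as TPM, a measure scaled by transcript length and to the same total in each library.

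The D14 cells had been in IFN-γ for 14 days. The D28WO cells had the cytokine for the same 14 days, were then kept without it for another 14 and were collected on day 28. The D28 cells stayed in IFN-γ for all 28 days, the D3 cells had 3 days of it, and the Untreated cells had none. By their labels the Untreated cells were collected on day 3, while the series description names a day 0 sample. No untreated library of day 28 is among the U251 libraries. Time in culture and withdrawal therefore cannot be told apart in D28WO against D14. Time and past treatment likewise cannot be told apart in D28WO against Untreated. The dose is given as 1 µL/mL in the treatment labels and as 1 µg/mL in the treatment protocol. The methods of the study name another amount, so the dose is uncertain. Replicates are described as independent biological replicates, and p-values measure the spread between these cultures.

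IFN-γ binds a receptor made of IFNGR1 and IFNGR2 chains, which activates the kinases JAK1 and JAK2, and the signal reaches GAS elements in target promoters. IRF1 is an early target and in turn binds interferon-stimulated response elements (ISRE). Targets include the antigen presentation machinery, the class II transactivator CIITA, guanylate-binding proteins and the CXCR3 ligand chemokines, while SOCS1 shuts the kinases down again.

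The promoters of genes that moved together between D14 and D28WO are shown first, since these letters are the sites through which the interferon signal and the S-phase factor E2F are known to act. Each is the 250 bases before the gene's start in RefSeq on GRCh38.p14, read 5′ to 3′ on the gene's own strand. Capitals mark GAS letters (TTCNNNGAA) or ISRE-like letters (GAAANNGAAA) in the 6 interferon targets, and the E2F letters TTTCCCGC or TTTGGCGC in the 2 replication genes, searched on both strands. The interferon targets are IRF1 (chr5:132490774-132491023, minus strand), TAP1 (chr6:32853705-32853954, minus strand), GBP1 (chr1:89065209-89065458, minus strand), CXCL9 (chr4:76007510-76007759, minus strand), SOCS1 (chr16:11256205-11256454, minus strand) and CD274 (chr9:5450292-5450541, plus strand). The replication genes are MCM6 (chr2:135876444-135876693, minus strand) and PCNA (chr20:5126623-5126872, minus strand).
IRF1: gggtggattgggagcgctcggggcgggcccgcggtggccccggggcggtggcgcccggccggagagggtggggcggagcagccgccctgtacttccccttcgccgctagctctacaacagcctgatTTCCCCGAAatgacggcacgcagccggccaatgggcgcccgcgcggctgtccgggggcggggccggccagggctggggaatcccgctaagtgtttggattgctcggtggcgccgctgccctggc
TAP1: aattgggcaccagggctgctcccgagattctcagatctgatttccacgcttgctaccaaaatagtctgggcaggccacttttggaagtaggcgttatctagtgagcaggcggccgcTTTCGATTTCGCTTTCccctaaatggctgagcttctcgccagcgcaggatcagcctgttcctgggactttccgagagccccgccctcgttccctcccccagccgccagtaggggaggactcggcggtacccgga
GBP1: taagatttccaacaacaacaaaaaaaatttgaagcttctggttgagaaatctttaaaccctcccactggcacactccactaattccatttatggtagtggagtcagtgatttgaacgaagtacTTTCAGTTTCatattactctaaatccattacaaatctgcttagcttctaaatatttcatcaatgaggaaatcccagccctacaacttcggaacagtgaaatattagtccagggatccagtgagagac
CXCL9: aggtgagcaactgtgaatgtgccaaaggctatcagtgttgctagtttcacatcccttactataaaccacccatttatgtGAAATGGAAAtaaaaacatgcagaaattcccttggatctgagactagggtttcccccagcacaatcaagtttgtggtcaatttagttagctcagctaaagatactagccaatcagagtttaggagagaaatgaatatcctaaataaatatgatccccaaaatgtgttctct
SOCS1: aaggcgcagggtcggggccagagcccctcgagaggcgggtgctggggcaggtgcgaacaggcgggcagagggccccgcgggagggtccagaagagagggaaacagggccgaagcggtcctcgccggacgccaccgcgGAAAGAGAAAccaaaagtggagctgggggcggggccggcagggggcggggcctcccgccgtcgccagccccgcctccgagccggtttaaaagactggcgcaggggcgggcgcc
CD274: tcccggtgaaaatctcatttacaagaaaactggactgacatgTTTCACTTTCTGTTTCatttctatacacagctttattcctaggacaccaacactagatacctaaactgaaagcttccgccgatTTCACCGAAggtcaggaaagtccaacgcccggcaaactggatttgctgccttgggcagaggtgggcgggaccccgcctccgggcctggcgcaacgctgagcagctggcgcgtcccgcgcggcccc
MCM6: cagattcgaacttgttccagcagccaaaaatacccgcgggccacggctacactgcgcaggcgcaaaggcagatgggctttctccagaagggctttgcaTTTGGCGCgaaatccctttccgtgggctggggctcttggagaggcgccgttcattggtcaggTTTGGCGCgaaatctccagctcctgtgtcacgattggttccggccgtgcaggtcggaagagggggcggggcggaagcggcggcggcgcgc
PCNA: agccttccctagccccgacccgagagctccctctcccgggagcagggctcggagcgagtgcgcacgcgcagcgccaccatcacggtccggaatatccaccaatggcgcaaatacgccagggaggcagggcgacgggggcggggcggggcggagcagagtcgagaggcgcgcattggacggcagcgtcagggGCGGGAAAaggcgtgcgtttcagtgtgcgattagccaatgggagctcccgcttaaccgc
The IRF1 promoter held 1 GAS match, from 124 to 116 bases before the start. GBP1, CXCL9 and SOCS1 held 1 ISRE-like match each, TAP1 held 2 that overlap, and CD274 held 2 overlapping ISRE-like matches and 1 GAS match. MCM6 held 2 E2F matches and PCNA 1. Among all 35116 RefSeq promoters cut to these 250 bases, 6.57% held GAS letters, 3.02% held ISRE-like letters and 1.93% held either E2F string. In the list of 32 type I interferon-stimulated genes, 27 had a promoter in the table and 18 of those held ISRE-like letters, 66.7%. GAS letters stood in 7 of the 27, 25.9%. Of the 5 immunoproteasome promoters 2 held ISRE-like letters and none held GAS letters. In the list of 16 helicase and licensing genes, 14 had a promoter and 6 held E2F letters, 42.9%. In the list of 54 G2/M genes, 45 had a promoter and 2 held E2F letters, 4.44%. Of the 429 genes past the threshold upward, described further on, 226 had a promoter in the table, too few for a share over all of them. A match describes the letters and not the binding of a factor.

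The 6 libraries resembled each other more within groups than between them. Pearson correlations of log2(TPM + 1) were 0.964 to 0.969 within groups and 0.941 to 0.949 between D14 and D28WO. The D14 libraries had 29771, 27763 and 28308 genes above 0 TPM and the D28WO libraries 26051, 26378 and 25633, so each D14 library listed more genes than any D28WO library (two-sided exact permutation p = 0.1, the smallest that 3 libraries against 3 can give). Olfactory receptor genes, which these cells are not known to use, summed to 51.0, 51.0 and 45.4 TPM at D14 and to 33.0, 38.9 and 46.1 TPM at D28WO, with overlapping groups (two-sided exact permutation p = 0.2). The 100 most abundant genes held 5.96%, 5.83% and 5.71% of all TPM at D14 and 6.42%, 6.66% and 6.62% at D28WO, again without overlap (exact permutation p = 0.1). Since the total is the same in each library, sequencing depth cannot be read from the table. The part of these background measures in the changes of low genes was not tested.

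Principal components of the 15 U251 libraries placed the groups apart. The first component, with 30.6% of the variance, ran from Untreated at -83.0 to -73.3 up to D28 at 48.2 to 55.3. D14 lay at -17.2 to -12.1 and D28WO at -2.98 to -1.28, so both sat between these ends, with D28WO on the D28 side of D14. The second component, with 15.4%, separated the compared groups most, at -41.1 to -39.2 for D14 and 51.1 to 56.0 for D28WO.

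Glioma and astrocytic markers were present in each library: the 7 genes VIM, NES, SOX2, SOX9, CD44, GFAP and S100B summed to 3084, 2902 and 2684 TPM at D14 and to 2222, 2286 and 2280.0 TPM at D28WO. The T and NK cell markers PTPRC, CD3D, CD3E and NKG7 together held 1.98, 3.04 and 0.658 TPM at D14 and 1.88, 0 and 0.0436 TPM at D28WO. The macrophage and microglia markers CD14, CSF1R, AIF1, TYROBP and P2RY12 summed to 5.96, 5.39 and 5.08 TPM at D14 and to 4.35, 4.30 and 5.02 TPM at D28WO, most of it CSF1R and CD14, with AIF1, TYROBP and P2RY12 at 0 in the 6 libraries. The endothelial markers PECAM1, VWF and CDH5 summed to 21.4, 9.79 and 10.4 TPM at D14 and to 8.80, 5.51 and 4.31 TPM at D28WO. CDH5, a cadherin of endothelial cells and the most abundant of the endothelial markers at D14, held 17.3, 8.66 and 8.65 TPM at D14 and 3.56, 1.87 and 1.31 TPM at D28WO. PECAM1 held 1.32, 0.155 and 0.192 TPM at D14 and 0.761, 0.919 and 1.97 TPM at D28WO, and VWF 2.78, 0.981 and 1.58 TPM at D14 and 4.47, 2.72 and 1.03 TPM at D28WO, so of the 3 only CDH5 had a lower mean at D28WO. The part of these markers in other results was not tested.

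Before the comparisons, the libraries were checked against their labels with the direct IFN-γ targets CIITA and SOCS1. CIITA measured 8.10, 7.48 and 6.85 TPM in the libraries labelled D14, under 14 days of IFN-γ, and 109, 101 and 95.9 TPM in the libraries labelled D28WO, 14 days after its removal. For comparison it was 2.65, 1.76 and 1.21 TPM in Untreated, 137, 126 and 128 TPM at D3 and 126, 126 and 139 TPM at D28. SOCS1 ran the same way, at 11.5, 9.13 and 6.94 TPM at D14 and 63.8, 67.7 and 65.8 TPM at D28WO. The libraries labelled as withdrawn were thus the ones with high target levels, and those labelled as under IFN-γ on day 14 the ones with low levels, the reverse of the order that the treatment labels give. All 3 replicates of each group behaved alike. Other genes stood in another order. CXCL8, an NF-κB target, measured 143, 172 and 153 TPM at D14 and 128, 134 and 153 TPM at D28, while its 29.9, 32.0 and 28.2 TPM at D28WO overlapped the 27.9, 34.0 and 32.9 TPM of Untreated, so here the withdrawn libraries lay with the cells that never had IFN-γ. IDO1 and CD274, whose values are given further on, were likewise lower at D14 than at D28WO. The groups are used below as labelled. Whether the D14 and D28WO labels are exchanged was not tested, and an exchange would turn the direction of each difference between these groups and change those from D28 and Untreated. Protein and growth measurements that the study made under the same labels are not in the deposited table and were not analysed here. The study describes U251 growth as suppressed under prolonged IFN-γ and as rebounding after washout, the order that the labels give. The S-phase RNAs described below ran the other way. Of 43 tested, 39 were lower and 0 higher at D28WO than at D14, at an adjusted p under 0.05 in limma. Against Untreated 33 were lower and 1 higher. How these RNAs relate to the growth measurements was not tested. The study also describes several signalling proteins as moving back after washout, at least in part, and others as staying reduced. From the RNA it describes interferon programs as only partly attenuated after washout. Immunoproteasome genes were by its account highest at day 28, whether or not the cytokine had been removed.

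Most genes of the antigen presentation and type I interferon-stimulated lists were higher at D28WO than at D14, and most of the replication and NF-κB lists were lower. Past the threshold there were more falls than rises. Of 23102 genes that averaged 0.5 TPM or more in these 6 libraries, 429 were higher at D28WO than at D14 and 1315 were lower, at an adjusted p under 0.05 and a log2 fold change beyond 1 in limma, with Benjamini-Hochberg adjustment over all genes tested. These are 1.86% and 5.69% of the genes tested. By adjusted p alone 2538 genes were higher, 11%, and 3827 lower, 16.6%, and the median log2 fold change of all genes tested was -0.08, which turned to 0.01 under quantile normalization. Fold changes, here and in all that follows, are differences of mean log2(TPM + 1), D28WO minus D14 unless another group is named, a scale that understates changes of low genes. Of the genes past the threshold, 344 of the 429 higher and 861 of the 1315 lower reached a mean of 5 TPM in their higher group. Of all 23102 genes tested 14776 did. After quantile normalization of the log2 values the same fit gave 688 higher and 927 lower, so higher genes made up 24.6% of those past the threshold without it and 42.6% with it. The groups did not overlap in 415 of the 429 higher and 1269 of the 1315 lower genes. The limits on p and fold change favour such separation themselves, so these counts are no further support for the calls. Protein-coding genes made up 68.9% of the 415 higher and 64.5% of the 1299 lower genes matched to GENCODE, and 64.8% of all genes matched.

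The same 23102 genes were also compared between D28WO and D28, the other course that starts from D14, and between D28WO and Untreated. Against D28, 270 genes, 1.17%, were higher at D28WO and 1716, 7.43%, were lower past the threshold, and by adjusted p alone 2444 genes, 10.6%, were higher and 4156, 18.0%, lower. The median over all genes was -0.09 and moved to 0.03 under quantile normalization, which gave 565 higher and 979 lower. Against Untreated, 969 genes, 4.19%, were higher and 759, 3.29%, lower past the threshold. By adjusted p alone 3405 genes, 14.7%, were higher and 3141, 13.6%, lower. The median was 0.03 and turned to -0.02 under quantile normalization. That setting gave 857 higher and 870 lower past the threshold, so the larger count was then that of lower genes. The 3 comparisons share the D28WO libraries and are not independent of each other.

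**Figure D1:**
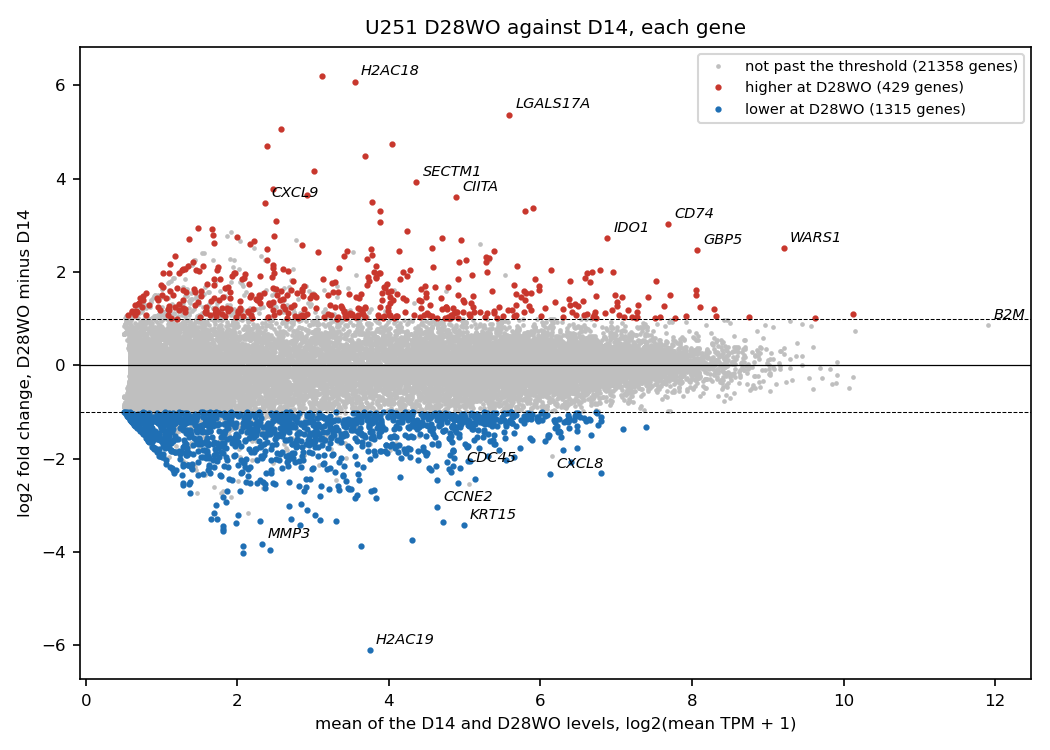
Each point is 1 gene, with its mean level on the x axis, log2(mean TPM + 1), and its log2 fold change, D28WO minus D14, on the y axis. The 429 genes higher at D28WO past the threshold are red, the 1315 lower are blue and the dashed lines mark 1 and -1. Class II and other interferon targets such as CD74 and WARS1 stand at the upper right, and B2M, the most abundant gene named, lies just under the line.

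In what follows, a gene is said to rise or fall where its adjusted p over all 23102 genes is under 0.05, and the lists are described by their counts and medians. In bulk cultures fewer expressing cells and less RNA per cell cannot be told apart.

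Of the 9 genes of the receptor and JAK-STAT list, 7 rose and 1 fell, with a median of 0.33 beside -0.08 for all genes. The one that fell was IFNGR2, a receptor chain chosen for mention after its values were seen. JAK2, the kinase bound to IFNGR2, held 14.0, 15.8 and 13.4 TPM at D14 and 46.8, 48.7 and 48.2 TPM at D28WO, a log2 fold change of 1.67 (SE 0.19, adjusted p = 2.1e-05). The groups did not overlap, and D28 held 64.7, 52.4 and 52.6 TPM. STAT2, a factor of the type I response, rose by 0.68 log2 units (SE 0.07, adjusted p = 5.9e-06).

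IRF1, a transcription factor gene with GAS letters in the promoter shown above, measured 288, 321 and 292 TPM at D14 and 609, 663 and 588 TPM at D28WO, a log2 fold change of 1.04 (SE 0.11, adjusted p = 9.6e-06), and the lowest D28WO library lay above the highest D14 library. Of the 6 IRF genes tested, 4 rose and none fell (1 at an unadjusted p under 0.05), with IRF2 at 0.68 (adjusted p = 3.6e-04). IRF3 held 113, 174 and 140.2 TPM at D14 and 119, 104 and 89.7 TPM at D28WO, overlapping ranges with an adjusted p of 0.079, though without D14 replicate 1 its difference of -0.59 passed. IRF7, a factor of the type I response, was low, at 0.719, 0.657 and 0.926 TPM at D14 and 3.03, 2.35 and 2.17 TPM at D28WO (adjusted p = 0.10).

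Among 8 feedback regulators, 3 rose and none fell (0 at an unadjusted p under 0.05). SOCS1, the inhibitor of JAK1 and JAK2 whose values are given above, rose by 2.74 log2 units (SE 0.14, adjusted p = 1.9e-08) and was also above the continuously treated D28 libraries, at 41.3, 46.1 and 49.9 TPM, by 0.52 log2 units (adjusted p = 0.014). SOCS3, a related inhibitor, rose by 0.27 log2 units (adjusted p = 0.041), and the call was lost without D14 replicate 1, 2 or 3 or D28WO replicate 1, 2 or 3, with 0.25 to 0.29 over all 6 omissions. USP18, a negative regulator at the type I receptor, rose by 0.30 log2 units (adjusted p = 0.043), and the call was lost without D14 replicate 1, 2 or 3 or D28WO replicate 2 or 3, with 0.24 to 0.42 over all 6 omissions. The phosphatase gene PTPN1 did not pass, at -0.04 (adjusted p = 0.59), nor did CISH, at 0.50 (adjusted p = 0.051).

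Each gene of the class II list rose. All 14 listed genes were tested and all 14 rose, with a median log2 fold change of 1.87 against -0.08 for all genes tested. CIITA, the transactivator on which class II transcription depends, rose by 3.60 log2 units (SE 0.14, adjusted p = 2.0e-09). CD74, the invariant chain that guides class II molecules through the cell, held 70.4, 75.9 and 67.4 TPM at D14 and 549, 599 and 609.5 TPM at D28WO, a change of 3.02 (SE 0.21, adjusted p = 2.1e-07). HLA-DRA, the invariant α chain of HLA-DR, held 44.8, 53.7 and 50.4 TPM at D14 and 179, 186 and 183 TPM at D28WO. Each D28WO library exceeded each D14 library in both genes. HLA-DRA rose by 1.86 log2 units (SE 0.11, adjusted p = 4.6e-08), and it was listed at 0 in the 3 Untreated libraries.

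Most class II genes were lower at D28WO than under continued treatment. Their summed TPM was 671, 663 and 666 at D14, 2099, 2303 and 2198 at D28WO and 3227, 3275 and 3294 at D28. In the direct test, 11 of the 14 were lower at D28WO than at D28, with a median of -0.78. CD74 did not pass, at -0.01 log2 units (adjusted p = 0.99), while HLA-DRA was lower, at -0.73 log2 units (adjusted p = 1.9e-04), as was HLA-DOA, a chain of a class II accessory protein, at -1.33 log2 units (adjusted p = 0.0039). HLA-DOA had 7.67, 2.77 and 8.21 TPM at D14, 54.6, 49.3 and 41.7 TPM at D28WO and 131, 108 and 131 TPM at D28. IFI30, a thiol reductase of the antigen-processing compartment, had the smallest rise of the 14, 0.80 (adjusted p = 5.0e-07). Reads of HLA genes can be shared between close copies, so single HLA values are uncertain.

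Most class I presentation genes rose, with a smaller median than the class II list and from a high base. Of 12 genes 10 rose, none fell (0 at an unadjusted p under 0.05), and the median was 0.89. B2M, the light chain of class I molecules, held 2879, 2779 and 2887 TPM at D14 and 5010.4, 5378 and 5085 TPM at D28WO, a log2 fold change of 0.86 (SE 0.05, adjusted p = 2.5e-08). TAP1, a subunit of the peptide transporter, held 195, 209 and 207 TPM at D14 and 452, 494 and 478 TPM at D28WO, a log2 fold change of 1.22 (SE 0.05, adjusted p = 5.3e-09). NLRC5, the class I transactivator, held 171, 186 and 166 TPM at D14 and 343, 325 and 327 TPM at D28WO. In all 3 genes the groups were apart. NLRC5 rose by 0.92 log2 units (SE 0.08, adjusted p = 2.3e-06) and HLA-B by 1.09.

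The immunoproteasome, which cuts peptides for class I molecules, moved in full: 5 of 5 genes rose, with a median of 0.73. PSMB10 rose by 1.03 log2 units (SE 0.07, adjusted p = 1.3e-07) and PSMB9, which lies next to TAP1 and shares a promoter region with it, by 0.92 (SE 0.05, adjusted p = 4.5e-08). PSMB9 held 147, 157 and 160.4 TPM at D14 and 279, 298 and 304 TPM at D28WO, and the activator subunits PSME1 and PSME2 rose by 0.73 and 0.54. Of the 3 constitutive catalytic subunits 1 passed: PSMB5 fell by 0.21 log2 units (adjusted p = 0.049), and the call was lost without D14 replicate 2 or 3 or D28WO replicate 1, 2 or 3, with -0.27 to -0.18 over all 6 omissions.

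Guanylate-binding proteins, GTPases of cell-autonomous defence, rose in 7 of 7 genes with a median of 1.81. GBP5 measured 113, 117 and 108 TPM at D14 and 604, 602 and 674 TPM at D28WO, a log2 fold change of 2.46 (SE 0.10, adjusted p = 4.2e-09). GBP4 rose by 2.05 log2 units (SE 0.11, adjusted p = 3.3e-08) and GBP1 by 1.62 (SE 0.07, adjusted p = 4.2e-09). GBP1P1, a pseudogene of GBP1, went from 19.9, 16.5 and 16.8 TPM at D14 to 185, 191 and 198 TPM at D28WO, and its reads can be shared with GBP1. The 5 apolipoprotein L genes tested, of which APOL1 lyses trypanosomes, all rose, with a median of 1.46. APOL4 went from 1.78, 3.30 and 4.30 TPM at D14 to 44.5, 46.2 and 41.9 TPM at D28WO, a log2 fold change of 3.50 (SE 0.25, adjusted p = 2.6e-07), without overlap, and APOL3 rose by 1.80.

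**Figure D2:**
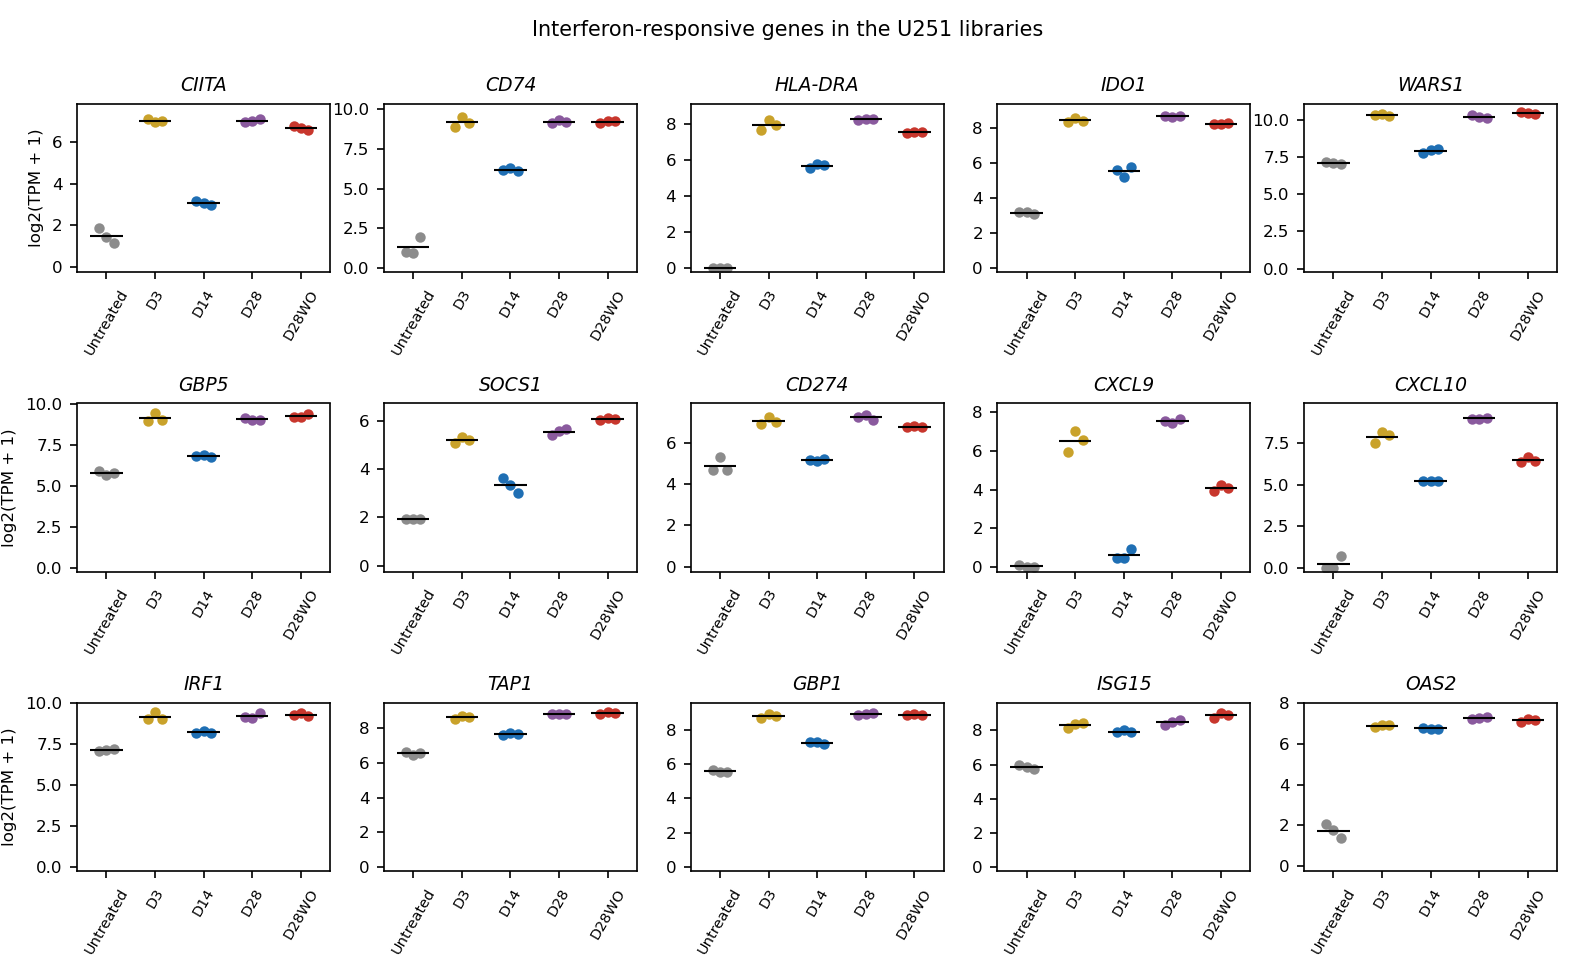
Level of 15 interferon-responsive genes in each U251 library, as log2(TPM + 1), by group, with a bar at each group's mean. CIITA, CD74, IDO1, WARS1 and GBP5 sit low at D14 and near the D3 and D28 levels at D28WO, CXCL9 and CXCL10 at D28WO lie between D14 and D28, and OAS2 is high in all treated groups.

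The chemokines split. Of 7 listed ligands, 5 were tested, 2 rose and 1 fell. CXCL9, a CXCR3 ligand that draws activated T cells, held 0.358, 0.392 and 0.894 TPM at D14 and 14.2, 18.2 and 15.9 TPM at D28WO, a log2 fold change of 3.48 (SE 0.22, adjusted p = 1.0e-07). CXCL10 held 35.5, 36.4 and 36.5 TPM at D14 and 80.5, 101 and 86.3 TPM at D28WO, a log2 fold change of 1.28 (SE 0.18, adjusted p = 1.5e-04). Both were higher in each D28WO library than in any D14 library, and with a pseudocount of 0.1 the difference of CXCL10, then 1.30, no longer passed. CXCL11 held 19.4, 27.2 and 27.7 TPM at D14 and 28.9, 36.2 and 29.4 TPM at D28WO and did not pass (adjusted p = 0.25). CCL2, a monocyte attractant, went the other way, from 54.9, 59.3 and 57.1 TPM at D14 to 11.9, 9.17 and 7.97 TPM at D28WO, a log2 fold change of -2.46 (SE 0.18, adjusted p = 3.5e-07).

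Against continued IFN-γ, all 5 tested chemokines were lower at D28WO, with a median of -2.81. CXCL9 held 186, 174 and 203 TPM at D28 and differed by -3.46 log2 units (adjusted p = 1.5e-07). CXCL10 held 492, 498 and 521 TPM, a difference of -2.49 log2 units (adjusted p = 4.8e-07), and CXCL11 432, 418 and 493 TPM, a difference of -3.79 log2 units (adjusted p = 5.2e-08). CCL5 did not pass against D14 (adjusted p = 0.31) and was below D28, at -2.23 log2 units (adjusted p = 1.6e-04). In the same libraries CIITA did not pass against D28, at -0.36 log2 units (adjusted p = 0.074).

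Checkpoint and tolerance genes rose in 4 and fell in 2 of 8 tested. IDO1, which degrades tryptophan, held 46.7, 36.0 and 52.6 TPM at D14 and 303, 299 and 304 TPM at D28WO, a log2 fold change of 2.73 (SE 0.11, adjusted p = 2.0e-09). CD274, which encodes PD-L1, held 34.4, 34.1 and 36.6 TPM at D14 and 109.5, 112 and 106 TPM at D28WO, a log2 fold change of 1.62 (SE 0.14, adjusted p = 1.6e-06). The D14 values of CD274 were near the 24.8, 38.5 and 24.8 TPM of Untreated, and neither gene's groups overlapped. TNFRSF14, a receptor of the BTLA axis, rose by 1.45 log2 units (SE 0.16, adjusted p = 1.6e-05), while CD276, which encodes B7-H3, fell by 0.45 log2 units (SE 0.09, adjusted p = 0.0016). CD47, the signal that restrains phagocytes, had 179.9, 184 and 165 TPM at D14 and 166, 196 and 168 TPM at D28WO, overlapping ranges (95% interval of the difference -0.19 to 0.19).

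In the tryptophan and kynurenine list, 3 genes rose and 3 fell of 6 tested. WARS1, the tryptophanyl-tRNA synthetase, held 219.7, 255 and 267 TPM at D14 and 1466, 1405 and 1352 TPM at D28WO, a log2 fold change of 2.51 (SE 0.07, adjusted p = 9.3e-11). Each D28WO library was above each D14 library and above the 1281, 1172 and 1118 TPM of D28, with a difference from D28 of 0.24 log2 units (adjusted p = 0.018). TDO2, another enzyme that opens the tryptophan ring, fell from 17.8, 13.9 and 10.4 TPM at D14 to 3.66, 4.73 and 5.19 TPM at D28WO, a log2 fold change of -1.42 (SE 0.22, adjusted p = 2.5e-04). KMO and KYNU, enzymes further down the kynurenine route, fell by 1.16 and 0.74.

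Genes best known from the type I response mostly rose. Of 32 listed genes, 27 rose and none fell (0 at an unadjusted p under 0.05), with a median of 0.59. ISG15, a ubiquitin-like modifier, held 239, 257 and 239 TPM at D14 and 428, 528 and 479 TPM at D28WO, a log2 fold change of 0.96 (SE 0.10, adjusted p = 9.2e-06). OAS2, an antiviral synthetase, held 110.3, 106 and 106 TPM at D14 and 135, 148 and 145 TPM at D28WO, a log2 fold change of 0.40 (SE 0.12, adjusted p = 0.024), against 3.13, 2.48 and 1.61 TPM in Untreated. Both had non-overlapping groups, and for OAS2 the call was lost without D14 replicate 2 or 3 or D28WO replicate 2 or 3, with 0.38 to 0.44 over all 6 omissions. MX1 rose by 0.62 log2 units (adjusted p = 0.0025), OAS1 by 0.57 (adjusted p = 3.6e-05) and IFIT1 by 0.44 (adjusted p = 7.7e-04). ISG20, an exonuclease, had the largest rise in the list, a log2 fold change of 1.84 (SE 0.15, adjusted p = 1.4e-06), from 37.2, 26.6 and 29.9 TPM at D14 to 106, 125 and 109.9 TPM at D28WO. IFI27, with 173, 204 and 182 TPM at D14 and 229, 283 and 325 TPM at D28WO, did not pass (adjusted p = 0.23). The 7 genes of the interferon-related DNA damage resistance signature all rose, with a median of 0.57, and share 6 members with the longer list. The 5 PARP and DTX3L genes all rose as well, with a median of 0.62, PARP14 most at 1.08 (adjusted p = 9.1e-07).

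Complement genes rose in 9 and fell in 2 of 13 tested, with a median of 0.82. C2 went from 4.79, 3.99 and 2.35 TPM at D14 to 51.3, 45.7 and 37.6 TPM at D28WO, a log2 fold change of 3.31 (SE 0.25, adjusted p = 5.9e-07), though the annotated gene overlaps CFB, so its level is uncertain. C4A and C4B, near-identical copies that share reads, rose by 2.46 and 2.26. C3, the hub of the cascade, held 107, 116 and 116 TPM at D14, 167, 172 and 222 TPM at D28WO and 367, 407 and 457 TPM at D28. It rose by 0.71 log2 units (SE 0.13, adjusted p = 0.0013) from D14 and was below D28, at -1.14 log2 units (adjusted p = 3.1e-05). The gene of the surface inhibitor CD59 did not pass, at -0.20 (adjusted p = 0.089).

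Of 13 death receptor and caspase genes, 6 rose and 1 fell. TNFSF10, the death ligand TRAIL, rose by 0.98 log2 units (SE 0.12, adjusted p = 3.7e-05), from 80.5, 67.5 and 67.0 TPM at D14 to 135, 146 and 145 TPM at D28WO. CASP1, the inflammatory caspase, rose by 0.72 log2 units (adjusted p = 3.3e-06) and GSDMD, the pore protein of pyroptosis, by 0.39 (adjusted p = 0.0067).

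The 12 rises taken by size, from genes with a symbol, included genes of no list. LGALS17A, a galectin-related gene annotated as a long non-coding RNA that overlaps other genes, held 7.21, 3.68 and 9.03 TPM at D14 and 294, 295 and 313 TPM at D28WO, a log2 fold change of 5.37 (SE 0.21, adjusted p = 2.4e-09). LGALS13, a galectin gene on the same chromosome, held 0.661, 0.904 and 0 TPM at D14 and 17.0, 18.8 and 22.2 TPM at D28WO. At D28 LGALS17A held 339, 307 and 356 TPM and LGALS13 15.8, 19.7 and 21.1 TPM. SECTM1, a secreted and transmembrane T cell costimulator, went from 4.13, 5.65 and 3.16 TPM at D14 to 76.0, 85.7 and 74.4 TPM at D28WO, a log2 fold change of 3.93 (SE 0.22, adjusted p = 4.6e-08). IL18BP, the decoy that neutralises IL-18, went from 17.1, 13.8 and 19.2 TPM at D14 to 163, 175 and 184 TPM at D28WO, a log2 fold change of 3.31 (SE 0.16, adjusted p = 9.7e-09), and its locus overlaps NUMA1 on the other strand. GJD3, a gap junction gene, rose by 4.17 log2 units (SE 0.14, adjusted p = 9.9e-10).

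CFAP107, a cilia-associated gene, followed another course. It held 2.56, 0.751 and 1.94 TPM at D14, 50.1, 64.6 and 61.7 TPM at D28WO, 13.7, 17.7 and 12.1 TPM at D28 and 13.8, 14.7 and 8.51 TPM in Untreated. It rose by 4.49 log2 units (SE 0.26, adjusted p = 5.6e-08) and each D28WO library lay above the 12 others, D3 with 15.4, 19.6 and 22.7 TPM included. Among genes with a symbol the largest rise and the largest fall by value, of the histone genes H2AC18 and H2AC19, come from near-identical copies between which reads can be assigned either way. H2AC18 held 1.34, 0.0894 and 0.0002 TPM at D14 and 94.6, 93.5 and 86.5 TPM at D28WO, H2AC19 112, 109 and 111 TPM at D14 and 0.652, 0.605 and 0.584 TPM at D28WO. Their sum was 113, 109 and 111 TPM at D14 and 95.3, 94.1 and 87.1 TPM at D28WO, so the single values of 6.08 (adjusted p = 0.0072) and -6.11 (adjusted p = 0.0074) are uncertain. The swap also occurs within a group, since H2AC19 at D28 measured 1.50, 131 and 1.07 TPM.

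**Figure D3:**
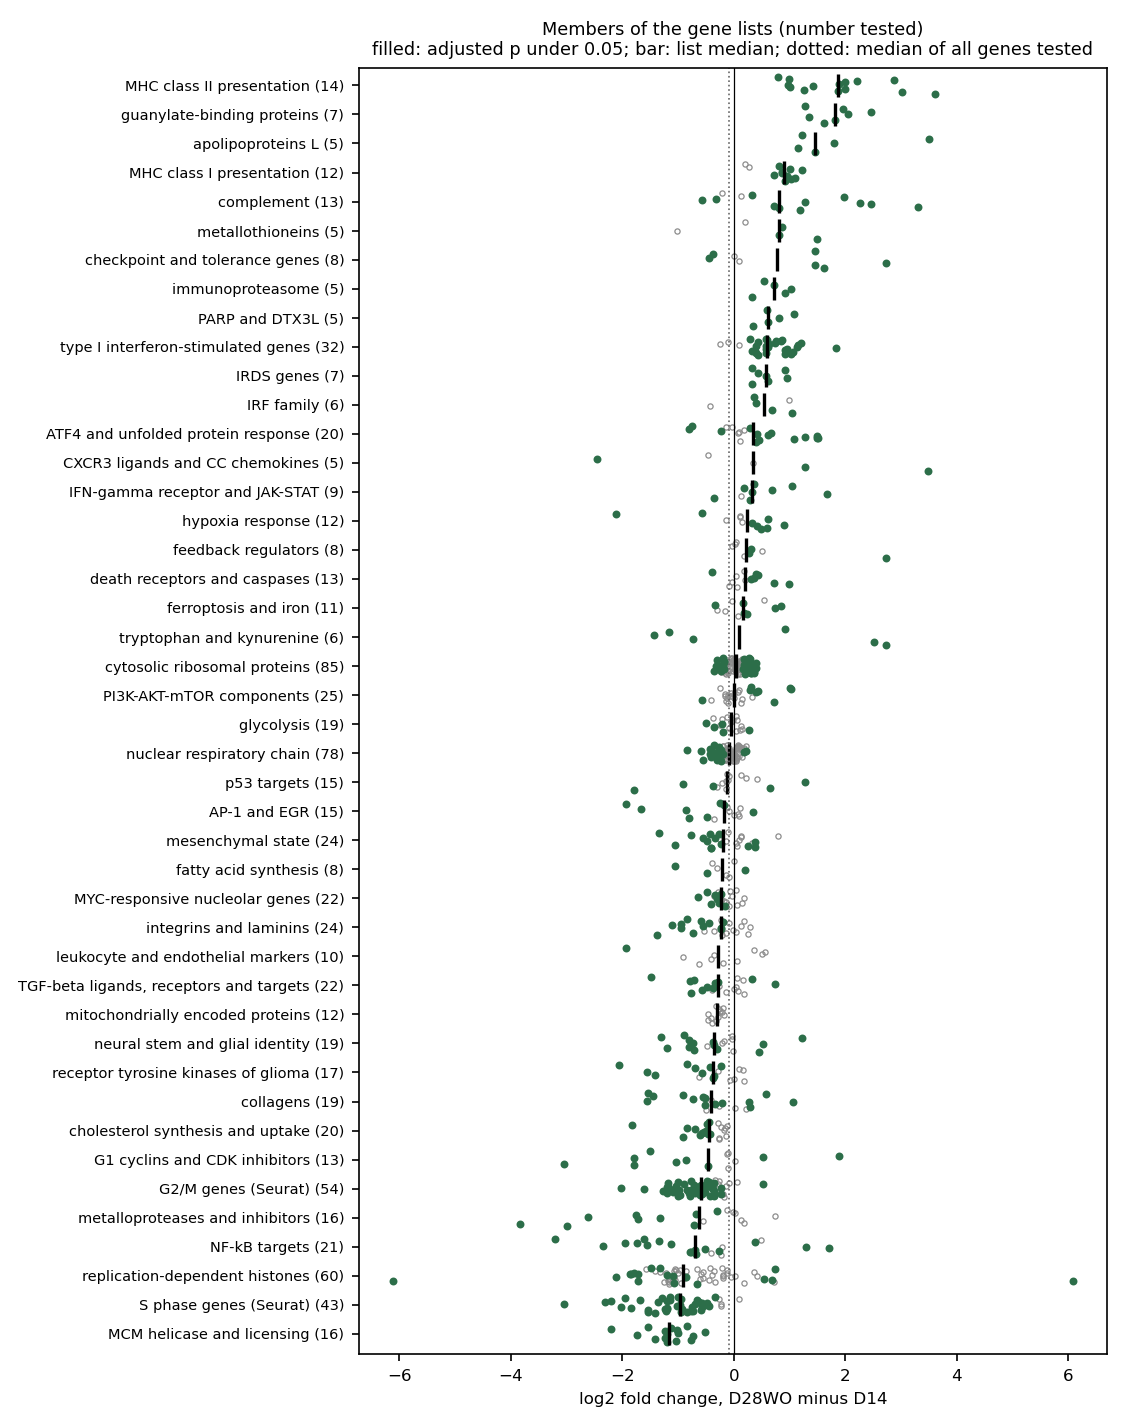
Log2 fold change, D28WO minus D14, of each tested member of the gene lists, 1 line a list, ordered by list median. Filled points have an adjusted p under 0.05, bars are list medians and the dotted line is the median of all genes tested, -0.08. Class II presentation and guanylate-binding proteins stand at the top with medians of 1.87 and 1.81, and helicase and licensing genes at the bottom with -1.16.

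The helicase and licensing genes of DNA replication fell. All 16 genes of the helicase and licensing list fell, with a median log2 fold change of -1.16. CDC45, which joins the MCM ring to form the active helicase, held 68.3, 57.0 and 68.9 TPM at D14 and 10.8, 16.9 and 12.6 TPM at D28WO, a log2 fold change of -2.20 (SE 0.15, adjusted p = 2.1e-07). GINS2, a subunit of the GINS complex of the same helicase, held 50.9, 48.9 and 51.7 TPM at D14 and 13.1, 19.5 and 17.9 TPM at D28WO. MCM10, which starts the helicase, held 23.7, 39.3 and 26.2 TPM at D14 and 7.23, 12.5 and 5.53 TPM at D28WO. In these 3 genes each D28WO library was below each D14 library. GINS2 fell by 1.55 log2 units (SE 0.11, adjusted p = 4.0e-07) and MCM10 by 1.74 log2 units (SE 0.27, adjusted p = 2.9e-04). MCM2, a ring subunit, fell by 1.19, and PCNA, the polymerase clamp, by 0.85. MCM4 and MCM7, the most abundant members, fell by 0.76 and 0.72.

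Most of the list was also lower than under continued IFN-γ and than in cells that never had it. Against D28, 15 of 16 were lower at D28WO, with a median of -0.90, and against Untreated 13 were lower, with a median of -0.80. CDC45 held 49.7, 58.5 and 47.7 TPM at D28 and 46.4, 49.3 and 38.8 TPM in Untreated. Each of these 6 values was above the 3 of D28WO, and the differences were -1.89 log2 units (adjusted p = 9.9e-07) and -1.68 log2 units (adjusted p = 1.6e-06).

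The cyclins that open S phase fell with them. CCNE2, cyclin E2, held 61.6, 66.4 and 80.3 TPM at D14 and 5.57, 10.4 and 7.26 TPM at D28WO, a log2 fold change of -3.04 (SE 0.22, adjusted p = 4.1e-07), the largest fall of the S-phase list. CCNE1, cyclin E1, held 30.4, 33.3 and 35.4 TPM at D14 and 7.65, 9.54 and 9.45 TPM at D28WO, a log2 fold change of -1.79 (SE 0.11, adjusted p = 8.1e-08). D28WO was the lowest of the 5 groups for both. Of 43 S-phase genes 39 fell and none rose (0 at an unadjusted p under 0.05), with a median of -0.96. RRM2, which makes deoxynucleotides, held 218, 289 and 238 TPM at D14 and 48.1, 53.6 and 44.9 TPM at D28WO, a log2 fold change of -2.31 (SE 0.10, adjusted p = 5.2e-09). TYMS, the thymidylate synthase, fell by 0.95 log2 units (adjusted p = 4.0e-06). The D-type cyclin CCND1 held 110.0, 117 and 118 TPM at D14 and 103, 103 and 116 TPM at D28WO, with an adjusted p of 0.33, and CDK4 did not pass, at 0.02 (adjusted p = 0.88).

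Most mitotic genes fell as well. Of 54 G2/M genes 44 fell and 1 rose, with a median of -0.58. CDCA3, which drives mitotic entry, went from 89.5, 91.4 and 99.2 TPM at D14 to 21.9, 24.4 and 20.5 TPM at D28WO, a log2 fold change of -2.02 (SE 0.11, adjusted p = 2.8e-08). MKI67, the proliferation marker Ki-67, held 80.3, 111 and 91.3 TPM at D14 and 40.9, 39.5 and 39.4 TPM at D28WO, a log2 fold change of -1.20 (SE 0.11, adjusted p = 2.8e-06). TOP2A, the mitotic topoisomerase, fell by 0.97 log2 units (adjusted p = 4.9e-06). CCNB1, cyclin B1, fell by 0.37 log2 units (adjusted p = 0.035), though the call was lost without D14 replicate 2 or 3 or D28WO replicate 1 or 2, with -0.42 to -0.33 over all 6 omissions, and it did not pass against D28, at 0.09 log2 units (adjusted p = 0.61). The D14 levels were above those of Untreated, where MKI67 held 53.2, 55.5 and 53.2 TPM and TOP2A 99.5, 103 and 119.9 TPM, the latter against 130.3, 168 and 154 TPM at D14.

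Inhibitors of the cycle moved in both directions. In the list of 13 tested G1 cyclins, kinases and inhibitors 2 rose and 7 fell, with a median of -0.46. CDKN1A, which encodes p21, held 93.7, 97.3 and 102 TPM at D14 and 24.8, 31.8 and 26.8 TPM at D28WO, a log2 fold change of -1.78 (SE 0.09, adjusted p = 1.7e-08). CDKN1C, which encodes p57, held 6.36, 6.50 and 4.72 TPM at D14 and 28.9, 24.8 and 20.0 TPM at D28WO, a log2 fold change of 1.90 (SE 0.22, adjusted p = 2.4e-05). Both pairs of groups were apart, in opposite directions. Of 15 p53 target genes 2 rose and 3 fell, with a median of -0.13. SESN2, which is also a stress gene under ATF4, was the member that rose most, by 1.28 (SE 0.12, adjusted p = 5.3e-06). Of 22 MYC-responsive nucleolar genes 8 fell, RRP9 most at -0.65 (adjusted p = 1.2e-04), and none rose (0 at an unadjusted p under 0.05).

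**Figure D4:**
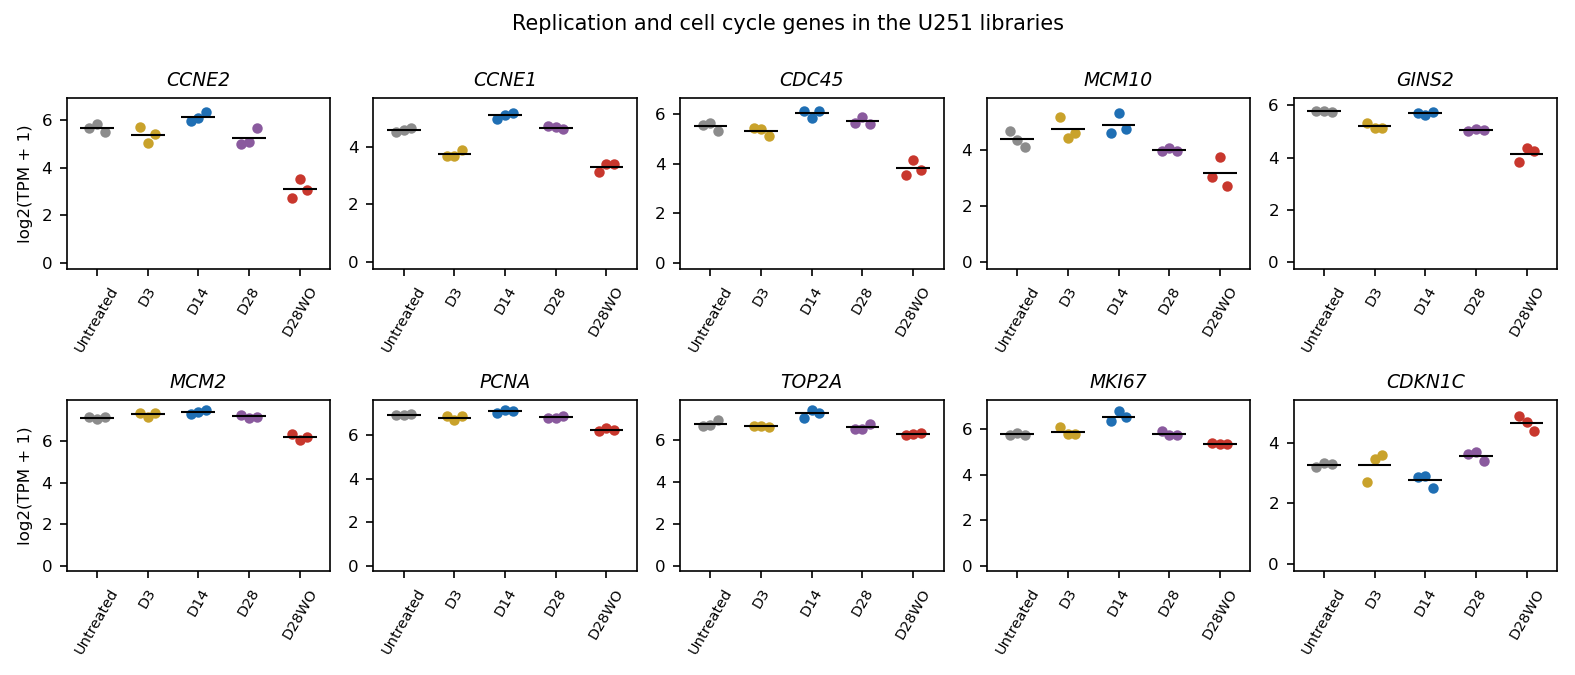
Level of 10 replication and cell cycle genes in each U251 library, as log2(TPM + 1), by group, with a bar at each group's mean. D28WO is below D14 in all but CDKN1C, and for CCNE2, CCNE1 and CDC45 its 3 libraries are the lowest of the 15.

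Of 60 tested replication-dependent histone genes, 4 rose and 14 fell, with a median of -0.91. H2BC18 fell by 2.11 log2 units (SE 0.49, adjusted p = 0.0053) and is a close copy of other H2B genes. H2AC6 rose, from 113, 116 and 111 TPM at D14 to 152, 179 and 167 TPM at D28WO, a log2 fold change of 0.55 (SE 0.07, adjusted p = 4.9e-05).

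Most NF-κB targets fell. Of 21 tested 14 fell and 3 rose, with a median of -0.69. CXCL8, the neutrophil attractant IL-8, held 143, 172 and 153 TPM at D14 and 29.9, 32.0 and 28.2 TPM at D28WO, a log2 fold change of -2.34 (SE 0.11, adjusted p = 9.7e-09). CSF2, the growth factor GM-CSF, held 9.77, 9.55 and 14.3 TPM at D14 and 0, 0.455 and 0.510 TPM at D28WO, a log2 fold change of -3.21 (SE 0.48, adjusted p = 2.1e-04). Against Untreated CXCL8 did not pass, at -0.07 log2 units (adjusted p = 0.70). ICAM1, an adhesion molecule with a GAS element in its promoter, rose from 33.5, 39.5 and 29.4 TPM at D14 to 119.8, 116 and 104 TPM at D28WO, a log2 fold change of 1.71 (SE 0.12, adjusted p = 2.6e-07). VCAM1, another adhesion molecule, rose by 1.29 log2 units (adjusted p = 1.6e-08) and SOD2, the mitochondrial dismutase, by 0.38 (adjusted p = 1.8e-05), and these were the 3 that rose. IL6 held 127, 118 and 93.0 TPM at D14 and 82.3, 107 and 100.1 TPM at D28WO, overlapping ranges with an adjusted p of 0.17, though without D14 replicate 3 its difference of -0.35 passed. Against D28, 13 of the 21 were lower at D28WO, with a median of -0.66.

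Metalloproteases and their inhibitors fell in 9 of 16 tested genes, none rose (1 at an unadjusted p under 0.05), and the median was -0.61. MMP3, stromelysin 1, held 15.1, 16.5 and 22.2 TPM at D14 and 0.148, 0.300 and 0.505 TPM at D28WO, a log2 fold change of -3.84 (SE 0.20, adjusted p = 2.6e-08). MMP1, the interstitial collagenase, held 7.77, 6.75 and 10.4 TPM at D14 and 0.174, 0 and 0.307 TPM at D28WO, a log2 fold change of -2.99 (SE 0.23, adjusted p = 7.2e-07). At D28 MMP3 held 34.7, 34.5 and 41.4 TPM and MMP1 18.4, 20.2 and 22.4 TPM. D28WO was below D28 in both, at -4.85 log2 units (adjusted p = 7.8e-09) and -4.20 log2 units (adjusted p = 5.7e-08). The reads of both can be shared with WTAPP1, which overlaps them on the other strand. ADAMTS1, a protease of the matrix, fell by 2.62 log2 units (SE 0.16, adjusted p = 6.7e-08), and MMP2, gelatinase A, by 0.72 log2 units (adjusted p = 5.1e-05). The inhibitor TIMP1 held 372, 388 and 353 TPM at D14 and 358, 387 and 391 TPM at D28WO, with overlapping groups and an adjusted p of 0.82.

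Among the other large falls, IL7R, the interleukin-7 receptor chain, held 65.8, 78.8 and 104 TPM at D14 and 5.57, 6.93 and 9.02 TPM at D28WO, a log2 fold change of -3.35 (SE 0.18, adjusted p = 2.2e-08). KRT15, a keratin, held 117, 89.4 and 101 TPM at D14 and 9.76, 10.6 and 5.89 TPM at D28WO, a log2 fold change of -3.44 (SE 0.26, adjusted p = 5.7e-07), and 159.5, 172 and 164 TPM in Untreated. In both the groups were far apart. ARHGDIB, a regulator of cell signalling, went from 19.1, 16.7 and 24.5 TPM at D14 to 0, 0.522 and 0.585 TPM at D28WO, a log2 fold change of -3.96 (SE 0.24, adjusted p = 6.9e-08), and its D28WO libraries were below those of the other 4 groups. LGR5, a receptor that amplifies Wnt signals, held 21.7, 19.3 and 25.8 TPM at D14 and 1.06, 1.07 and 1.39 TPM at D28WO, a log2 fold change of -3.42 (SE 0.22, adjusted p = 1.2e-07), and it did not pass against D28, at 0.18 log2 units (adjusted p = 0.59). GPRC5C, an orphan receptor, fell by 3.32 log2 units (SE 0.38, adjusted p = 2.0e-05) and TPRG1 by 3.74 log2 units (SE 0.38, adjusted p = 8.8e-06). The other 4 of the 12 named falls, CDH12P2, RPL36AP44, RBX1P2 and RN7SKP97, are pseudogenes by name, whose sequences can take reads from their parents, so their levels are uncertain. RPL36AP44, RBX1P2 and RN7SKP97 were listed at 0 in the 3 D28WO libraries, so no fold is given for them.

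**Figure D5:**
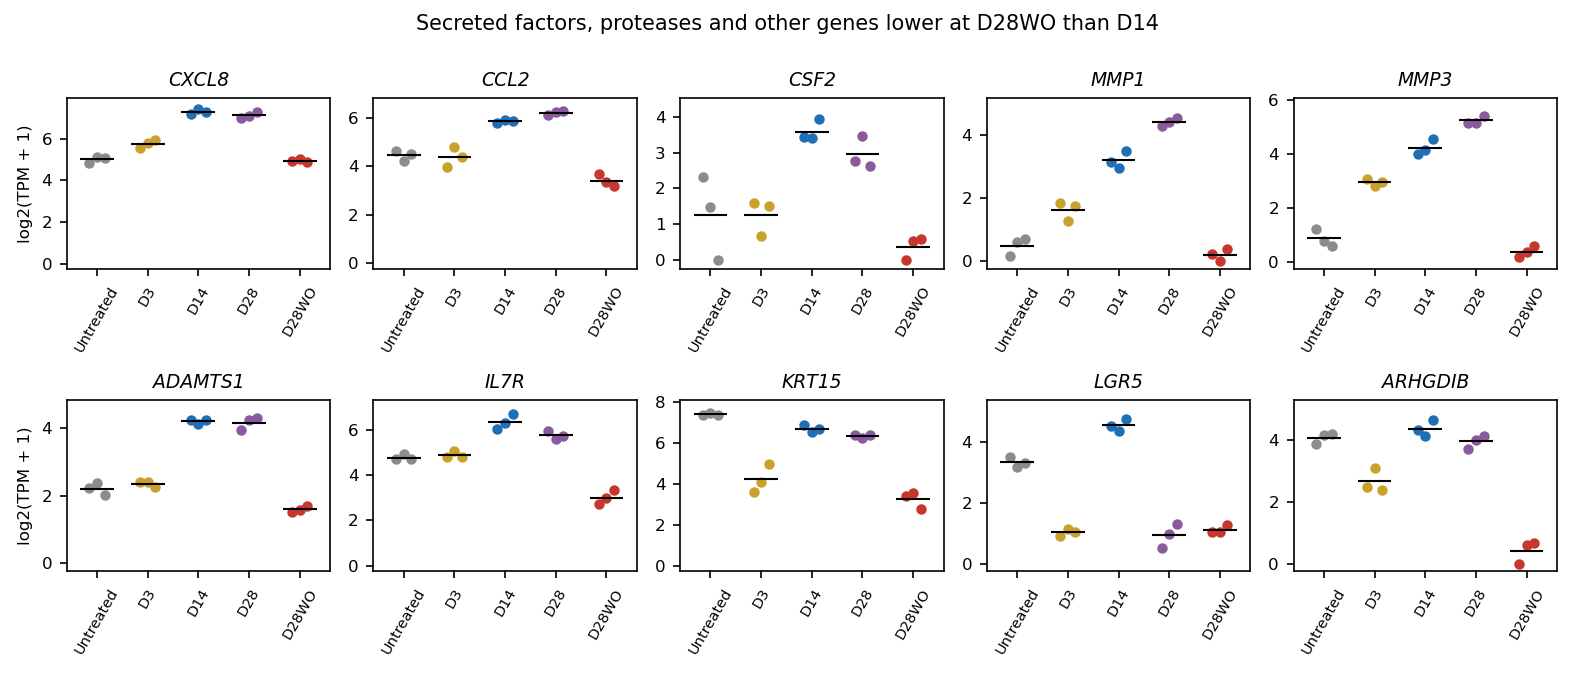
Level of 10 genes lower at D28WO than at D14 in each U251 library, as log2(TPM + 1), by group, with a bar at each group's mean. In each panel the 3 D28WO libraries lie below the 3 D14 libraries, and CXCL8, MMP1 and MMP3 are near their Untreated levels at D28WO.

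Receptors and signal outputs of growth factors fell more often than they rose. Of 17 receptor tyrosine kinases tested 10 fell and none rose (1 at an unadjusted p under 0.05), with a median of -0.37. NTRK2, the BDNF receptor, held 6.38, 5.03 and 5.89 TPM at D14 and 0.473, 0.555 and 0.851 TPM at D28WO, a log2 fold change of -2.06 (SE 0.24, adjusted p = 2.3e-05). FGFR3 fell by 1.55 log2 units (SE 0.25, adjusted p = 3.9e-04) and KDR by 1.42 log2 units (SE 0.12, adjusted p = 1.1e-06). EGFR held 78.2, 74.3 and 75.1 TPM at D14 and 87.8, 85.0 and 84.9 TPM at D28WO and did not pass (adjusted p = 0.068). DUSP6, a phosphatase induced by ERK signalling, fell from 71.5, 78.6 and 77.7 TPM at D14 to 20.1, 22.8 and 15.1 TPM at D28WO, a log2 fold change of -1.94 (SE 0.16, adjusted p = 1.4e-06), below each of the 37.9, 38.2 and 43.9 TPM of Untreated. Among 15 AP-1 and EGR genes 7 fell and 1 rose. FOS did not pass, at -0.35 (adjusted p = 0.10), and EGR3 fell by 1.66 log2 units (adjusted p = 0.0034). Of 22 TGF-β ligands, receptors and targets 9 fell and 2 rose. INHBA, the activin subunit, fell by 1.48 log2 units (SE 0.18, adjusted p = 4.5e-05), and CCN2 and TGFB2 by 0.79 and 0.76.

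Of 25 PI3K, AKT and mTOR components 7 rose and 1 fell, with a median of 0.01 that turned to -0.01 under quantile normalization. The highest differences were those of EIF4EBP1, the translation repressor 4E-BP1, from 94.0, 94.0 and 98.3 TPM at D14 to 204, 193 and 193 TPM at D28WO, a log2 fold change of 1.03 (SE 0.05, adjusted p = 1.9e-08), and DDIT4, the mTORC1 inhibitor REDD1. DDIT4 went from 127, 128 and 129 TPM at D14 to 260.1, 261 and 257 TPM at D28WO, a log2 fold change of 1.01 (SE 0.06, adjusted p = 1.1e-07), and was above D28, at 1.34 log2 units (adjusted p = 1.7e-08).

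Matrix and lineage genes moved in both directions. Collagens rose in 4 and fell in 10 of 19 tested genes. The largest falls were those of COL6A3, at -1.55 log2 units (adjusted p = 0.0019), COL27A1, at -1.53 (adjusted p = 1.2e-04), and COL13A1, at -1.46 (adjusted p = 9.7e-05). COL6A2 rose from 235, 227 and 197 TPM at D14 to 453, 466 and 451 TPM at D28WO, a log2 fold change of 1.05 (SE 0.06, adjusted p = 6.9e-08), while COL11A1 fell from 168, 180.3 and 158 TPM at D14 to 112, 127 and 113 TPM at D28WO, a log2 fold change of -0.52 (SE 0.09, adjusted p = 5.6e-04). COL11A1 at D28WO was above the 54.4, 62.6 and 56.2 TPM of D28, at 1.01 log2 units (adjusted p = 2.1e-06). Integrins and laminins fell in 12 of 24 genes and none rose (1 at an unadjusted p under 0.05), ITGA1 most at -1.38 (adjusted p = 1.9e-04). Of 24 mesenchymal genes 11 fell and 3 rose, with VIM at -0.40 (adjusted p = 9.1e-04) and CD44 at -0.41 (adjusted p = 0.0029).

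Neural stem and glial genes fell in 10 and rose in 3 of 19 tested. S100B, a calcium-binding protein of astrocytes, held 131, 122 and 111 TPM at D14 and 48.6, 56.1 and 52.2 TPM at D28WO, a log2 fold change of -1.20 (SE 0.15, adjusted p = 4.3e-05). GFAP, the astrocyte filament, held 809.9, 703 and 627 TPM at D14 and 574, 574 and 570.2 TPM at D28WO, a log2 fold change of -0.31 (SE 0.09, adjusted p = 0.022), and PDGFRA, a receptor of glial progenitors, 132, 132 and 120.2 TPM at D14 and 102, 96.3 and 98.5 TPM at D28WO, a log2 fold change of -0.37 (SE 0.08, adjusted p = 0.0036). The groups of both were apart, and for GFAP the call was lost without D14 replicate 1 or D28WO replicate 1, 2 or 3, with -0.40 to -0.21 over all 6 omissions. Both were higher at D28WO than at D28, at 1.23 log2 units (adjusted p = 5.0e-07) and 1.22 log2 units (adjusted p = 1.9e-07), and both lower than in Untreated, at -1.13 log2 units (adjusted p = 5.2e-07) and -1.10 log2 units (adjusted p = 2.0e-07). SOX2, a stem cell factor, rose by 0.45 log2 units (adjusted p = 0.0014) and MBP, a myelin gene, by 1.22 (adjusted p = 1.1e-05).

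Of 20 genes in the ATF4 and unfolded protein list 11 rose and 3 fell, with a median of 0.35. ASNS, the asparagine synthetase, held 119, 116 and 136 TPM at D14 and 351, 335 and 372 TPM at D28WO, a log2 fold change of 1.51 (SE 0.10, adjusted p = 1.4e-07). PSAT1, of serine synthesis, rose by 1.50 log2 units (SE 0.09, adjusted p = 6.7e-08) and CHAC1, which degrades glutathione, by 1.49 (SE 0.12, adjusted p = 8.4e-07). SDF2L1 and CRELD2, of the endoplasmic reticulum, fell by 0.80 log2 units (adjusted p = 4.2e-05) and 0.75 log2 units (adjusted p = 4.2e-05).

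Most cholesterol genes fell. Of 20 listed 12 fell and none rose (0 at an unadjusted p under 0.05), with a median of -0.45. DHCR7, a late step of cholesterol synthesis, fell by 0.83 log2 units (SE 0.08, adjusted p = 3.5e-06) and HMGCS1 did not pass, at -0.26 (adjusted p = 0.11). In fatty acid synthesis 2 of 8 genes fell, FADS2 most at -1.05 (adjusted p = 3.9e-06), and SCD, the stearoyl-CoA desaturase, rose by 0.20 log2 units (adjusted p = 0.016), and the call was lost without D14 replicate 3 or D28WO replicate 1 or 3, with 0.17 to 0.23 over all 6 omissions. Glycolysis genes rose in 1 and fell in 4 of 19, with GAPDH at -0.51 (adjusted p = 0.0019) and ENO1, which did not pass, at 0.06 (adjusted p = 0.43).

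Hypoxia-responsive genes rose in 6 and fell in 2 of 12. NDRG1 rose from 547, 546 and 454 TPM at D14 to 1008, 898 and 962 TPM at D28WO, a log2 fold change of 0.89 (SE 0.10, adjusted p = 2.2e-05), and VEGFA, the vascular growth factor, by 0.49 (adjusted p = 3.3e-04). ANGPTL4, a lipase inhibitor that hypoxia also induces, went down, from 20.8, 14.3 and 16.3 TPM at D14 to 2.52, 4.26 and 2.86 TPM at D28WO, a log2 fold change of -2.11 (SE 0.22, adjusted p = 1.1e-05). Of 5 metallothioneins tested 3 rose, and of 11 iron and ferroptosis genes 5 rose and 1 fell. MT1E went from 177, 155 and 140.1 TPM at D14 to 426, 448 and 458 TPM at D28WO, a log2 fold change of 1.50 (SE 0.18, adjusted p = 3.6e-05), and the ferritin chains FTH1 and FTL rose by 0.73 log2 units (adjusted p = 2.0e-06) and 0.84 (adjusted p = 8.1e-08). Metallothionein copies share reads.

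Of 85 cytosolic ribosomal protein genes 25 rose and 11 fell, with a median of 0.05 that turned to -0.02 under quantile normalization. Of 78 nuclear genes of the respiratory chain 2 rose and 20 fell, with a median of -0.09, and NDUFB8, a subunit of complex I, fell by 0.84 log2 units (adjusted p = 2.1e-05). In limma none of the 12 mitochondrially encoded genes tested passed, with 0 lower and 0 higher at an unadjusted p under 0.05, though MT-CO1, MT-CO2, MT-CO3 and MT-ND2 passed as lower in a fit of the 2 groups alone. Those 12 had a median of -0.30.

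The comparison with D28 sets 14 days without IFN-γ after day 14 against 14 more days with it. In class I presentation 2 of 12 genes were higher at D28WO than at D28, and the median was 0.07. B2M did not pass, at -0.02 log2 units (adjusted p = 0.83). Of the 32 type I interferon-stimulated genes 5 were higher and 4 lower than at D28, and of the 7 guanylate-binding proteins 1 higher and 2 lower, with medians of 0.09 and -0.04. Of all genes tested 10.6% were higher and 18.0% lower than at D28, so these counts of list members are not read as results of the lists.

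All 32 type I interferon-stimulated genes, all 14 class II genes and 11 of 12 class I genes were higher at D28WO than in Untreated, with medians of 2.65, 5.23 and 1.58. Cholesterol genes were lower in 17 of 20 and cytosolic ribosomal proteins in 39 of 85.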

How the data were processed

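Values are the deposited TPM table of the U251 libraries, in which the authors give abundance in TPM for 61471 genes. How TPM was computed is not stated, and a metadata sheet of the series calls the matrices CPM. The submitters' notes name FastQC, Trim Galore, STAR, featureCounts and edgeR on GRCh38. Some values are tiny fractions, such as 0.0002 TPM of H2AC18 in a D14 library, which whole reads counted by featureCounts would not give, so the counting step and the sharing of reads between near-identical copies are uncertain. Genes averaging 0.5 TPM or more in these 6 libraries were fitted as log2(TPM + 1) with limma 3.58.1 and its intensity trend in R 4.3.3, with the 15 libraries in 5 groups in 1 fit, and p-values were adjusted over all 23102 genes. The fit was tried on simulated data with independent noise and planted shifts beyond the fold change limit. The simulation held no background differences between libraries and no shared reads, so it cannot speak to those. Genes were named by rule: 12 rises and 12 falls by size without overlap, with a symbol and with at least 5 TPM, from each list the 3 with the most change and the 2 most abundant, and a fixed panel. Of the 244 genes so taken 190 passed, and those not described are counted with their lists. Members and lists were chosen with earlier results of these data known. Cell cycle lists came from Seurat 5.3.0. Other work used Python 3.11.15. The study states a minimum depth for its samples, and the depth of each library cannot be had from TPM. Alternatives were another pseudocount, other filters, other scalings, a fit of the 2 groups alone, array weights, a replicate block and leaving out each library. Items withheld for evaluations are not reported here.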

Additional observations from a re-analysis of the deposited data

How the results depend on the processing

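Counts past the threshold moved by more than 1.5 times under 3 settings. With adjusted p alone, 2538 genes were higher and 3827 lower than at D14, 2444 higher and 4156 lower than at D28, and 3405 higher and 3141 lower than in Untreated, since the limit on fold change was dropped. With a mean of at least 5 TPM, 716 genes were lower than at D14, 720 lower than at D28 and 471 lower than in Untreated, with fewer genes tested. With quantile normalization, 688 genes were higher than at D14, 565 higher than at D28 and 979 lower than at D28, and the cause was not tested. The other counts under these settings, and all counts with a pseudocount of 0.1, no filter, a mean of at least 1 TPM, median-ratio size factors, the 2 groups alone, array weights and the replicate block, were within 1.5 times.

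Leaving out each library in turn gave 386 to 507 genes higher and 1218 to 1304 lower than at D14, 241 to 291 higher and 1501 to 1662 lower than at D28, and 880 to 1022 higher and 702 to 830 lower than in Untreated. The difference in genes above 0, -2593 with all libraries, ran from -3019 to -2015, and that in summed olfactory receptor TPM, -9.82, from -13.2 to -6.64. With replicate number as a block, 431 genes were higher and 1319 lower than at D14. Deviations of libraries with the same number correlated at -0.02, -0.01 and 0.01 across genes, so the numbers were not used to pair samples.

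Under quantile normalization the difference of B2M, 0.86 as reported, was 0, which the method fixes for a gene that ranks first in each of the 6 libraries. The median of all genes went from -0.08 to 0.01 against D14, from -0.09 to 0.03 against D28 and from 0.03 to -0.02 against Untreated, and that of the cytosolic ribosomal proteins from 0.05 to -0.0185, and the cause was not tested. The median of the PI3K, AKT and mTOR components also changed sign. Medians of the 45 lists moved by more than their spread between replicates in 20 lists with median-ratio size factors, 13 with quantile normalization, 8 with a mean of at least 5 TPM, 5 with a pseudocount of 0.1 and 2 with array weights, and 41 times in 270 when 1 library was left out.

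Of the 244 named genes, a call was lost for 10 without a filter, 8 with median-ratio size factors, 6 with a pseudocount of 0.1, 5 in the fit of the 2 groups alone, 3 with quantile normalization and 2 with the replicate block, with the direction kept each time. Among genes described, these were PSMB5, CCNB1 and GFAP with median-ratio size factors, PSMB5, CXCL10 and OAS2 with the pseudocount, and PSMB5, CCNB1, SOCS3, USP18 and RBX1P2 without a filter. USP18 also lost it with quantile normalization and with the 2 groups alone, and SOCS3 with the replicate block. A call was gained for 13 genes with quantile normalization, 11 with the 2 groups alone, 7 with median-ratio size factors, 6 with a mean of at least 5 TPM, 5 with array weights, 5 with the replicate block and 1 with a mean of at least 1 TPM. CISH, CD59, EGFR and IRF7 gained one with quantile normalization, and FOS, IFI27 and IRF7 with the 2 groups alone. CISH and EGFR also did with median-ratio size factors, CISH with a mean of at least 1 TPM and EGFR with the replicate block. A sign changed in genes that passed under neither setting 6 times with quantile normalization and 2 times with median-ratio size factors. With a mean of at least 5 TPM 14 of the 244 genes had no value, and with at least 1 TPM 4 had none.

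Leaving out 1 library gave 1462 values for the named genes, since 1 gene missed the filter in 2 of the 6 omissions. A call was lost 93 times and gained 13 times with the direction kept, the sign changed 9 times in genes that passed in neither fit, and 1347 values kept direction and side of the limit.

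TPM sums to the same total in each library, so a change in total RNA cannot be seen, and the depth and counting error of each library are unknown beyond the minimum depth that the study states. Each group has 3 libraries of 1 line, whose identity was not authenticated. D28WO was collected 14 days after D14, so time in culture and withdrawal cannot be told apart between them. The dose of IFN-γ is uncertain, and the strand of the libraries is not stated, so genes that overlap on opposite strands can share reads. Levels of near-identical copies are uncertain, since how their reads were shared out is not known. The libraries labelled D14 and D28WO have the reverse of the labelled order in the IFN-γ targets CIITA, SOCS1, IDO1 and CD274 but not in CXCL8, an NF-κB target. All 14 class II genes, 7 guanylate-binding proteins and 5 immunoproteasome genes were also higher at D28WO, while of 21 NF-κB targets 14 were lower and 3 higher. Whether the D14 and D28WO labels are exchanged was not tested, and an exchange would turn each direction given between the 2 groups. The study's protein and growth measurements were not analysed here. By its account U251 growth rebounded and several signalling proteins moved back at least in part after washout, the order that the labels give. It also describes other proteins as staying reduced, and interferon programs in the RNA as only partly attenuated. The S-phase RNAs ran against the growth account, with 39 of 43 lower at D28WO than at D14 and 0 higher. Against Untreated 33 were lower and 1 higher, and how they relate to growth was not tested.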
